A study of Mus musculus with 16 samples.

Results

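The cytosolic ribosomal protein genes were followed in quadriceps muscle of mice with an intact *Mtm1* gene (WT) and of *Mtm1* knockouts (KO), with and without tamoxifen (TAM). A gene was a member of the set if its symbol named a protein of the large subunit (Rpl, Rplp0 to Rplp2) or the small subunit (Rps, Rpsa), if it was neither a pseudogene symbol nor an S6 kinase, and if it had at least 50 counts in each of the 16 libraries. Of the 41388 genes in the count table, 88 matched these symbols and 82 passed the minimum, 49 of the large and 33 of the small subunit. The other 6 were *Rpl10l*, *Rpl39l*, *Rps3a2*, *Rps3a3*, *Rps12l1* and *Rps12l2*, which had at most 103 counts in any library. All 82 passed the later filter on low counts in every comparison, so each was tested.

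RNA was sequenced from 16 mice of the C57BL/6 background at 36 days of age, with 4 libraries from WT, 4 from *Mtm1* KO and 4 from the treated mice of either genotype (WT + TAM and *Mtm1* KO + TAM). *Mtm1* encodes myotubularin, a phosphoinositide phosphatase, and the knockout lacked exon 4, deleted by homologous recombination. Treated mice ate chow with tamoxifen, a ligand of the estrogen receptor, for a dose of 40 mg/kg from day 21. The untreated groups received none. Per the methods of the study each library was a separate mouse. The study describes the mice as littermates, but no label says which shared a litter. It analysed 14 of the libraries, and its own tables of these comparisons have no columns for WT replicate 1 and KO replicate 12. These 14 libraries (3 of WT, 3 of *Mtm1* KO and 4 of each treated group) were the main set here, and values of the other 2 are given apart.

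Every ribosome joins a large and a small subunit, each a complex of ribosomal RNA with many proteins that are needed in fixed proportion. Most ribosomal protein mRNAs begin with a C followed by a run of pyrimidines, the terminal oligopyrimidine (TOP) tract, through which mTORC1 signalling controls their translation. A few ribosomal proteins have a paralog that can take their place, and the best known in muscle is *Rpl3l*, which striated muscle expresses in place of much of the ubiquitous *Rpl3*.

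Counts per library ranged from 25116179 to 29847222. The count of *Mtm1* was 341 to 369 in the 3 WT libraries, 282 to 459 in WT + TAM, 63 to 76 in *Mtm1* KO and 53 to 97 in *Mtm1* KO + TAM, so that the genotypes did not overlap. The library labelled WT replicate 1 held 74 counts of *Mtm1*, within the range of the knockouts, and the library labelled KO replicate 12 held 85. Muscle fiber markers were abundant throughout. The tissue is a mixture of cells, in which fewer cells of a type and less RNA per cell cannot be told apart.

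Levels of different genes were compared as RPKM (reads scaled to gene length and library total), the authors' own values, averaged over the 14 libraries. The most abundant member, *Rplp1*, a stalk protein of the large subunit, stood at 1329 RPKM and the least abundant, *Rps4l*, at 6.85 RPKM, a ratio of 194, and the median was 160 RPKM. After *Rplp1* came *Rps27* (850.0 RPKM), *Rps12* (614 RPKM), *Rps15* (555 RPKM) and *Rplp0* (511 RPKM). The lowest values after *Rps4l* were those of *Rpl7l1* (19.7 RPKM), *Rps15a* (34.2 RPKM), *Rps19* (36.4 RPKM) and *Rpl3* (41.7 RPKM). This order depends on the gene lengths the authors used, which counts and RPKM imply to be 255 bases for *Rps27* and 6262 bases for *Rps15a*. The mean normalized CPM of *Rps15a* in WT, 174, was above that of *Rps27*, 161. *Rps4l* is annotated as a transcribed processed pseudogene and the other 81 as protein coding genes (GENCODE vM21, GRCm38). They lay on 19 chromosomes, with 4 on the X chromosome.

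The TOP tract was looked for in the promoter table of RefSeq (GRCm38.p6), which matched 61 of the 82 genes with 73 annotated starts. A run was counted where the first transcribed base was C and at least 4 pyrimidines (C or T) followed on the transcript strand. It was present at 17.8% of the members' starts (13 of 73) and at 2.51% of all 32851 starts in the table. Because annotated starts are often a few bases off, these are counts of letters and not of TOP mRNAs. The 30 bases before and the 20 bases from the annotated start are shown for 3 members with a run and for 1 of the 2 starts of *Rpl3l*, which has none. Capitals mark the run, which starts at the first transcribed base.
Rps27, chr3:90213629-90213678, minus strand: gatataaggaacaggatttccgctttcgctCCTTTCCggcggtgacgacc
Rpl38, chr11:114668550-114668599, plus strand: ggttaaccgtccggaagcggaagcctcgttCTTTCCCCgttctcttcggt
Rplp2, chr7:141447621-141447670, plus strand: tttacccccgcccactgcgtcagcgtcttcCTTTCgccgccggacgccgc
Rpl3l, chr17:24727796-24727845, plus strand: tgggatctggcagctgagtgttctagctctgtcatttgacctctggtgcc

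*Rpl3* and *Rpl3l* moved in opposite directions between the genotypes, with and without tamoxifen. Both encode a core protein of the large subunit near the peptidyl transferase center. *Rpl3* (ENSMUSG00000060036) lies on chromosome 15 from 80077791 to 80091868 on the minus strand, and *Rpl3l* (ENSMUSG00000002500) on chromosome 17 from 24727820 to 24736143 on the plus strand (GRCm38). Their coding sequences, of 1209 and 1221 bases, were identical at 74.1% of 1206 aligned bases, and the longest identical run was 22 bases. A stretch of 60 coding bases, the bases 520 to 579 of each, shows how close the genes are where they are most alike. Capitals mark the 8 bases that differ.
Rpl3: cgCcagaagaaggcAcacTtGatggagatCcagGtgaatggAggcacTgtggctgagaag
Rpl3l: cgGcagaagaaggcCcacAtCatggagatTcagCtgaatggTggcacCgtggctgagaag
No stretch of 50 coding bases was shared between them. Of the exon sequence of *Rpl3*, 35.0% of 50-base stretches also occurred in another gene, mostly in *Rpl3-ps1*, whose own count was 0.752% of that of *Rpl3*. *Rpl3l* shared none with any gene.

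Values within a gene are given as normalized CPM (counts scaled to a common library total after TMM scaling over the 16 libraries). *Rpl3* stood at 94.0, 81.6 and 88.1 normalized CPM in WT and at 141, 143 and 181 in *Mtm1* KO. Every *Mtm1* KO library was above every WT library. With tamoxifen *Rpl3* stood at 117, 80.7, 81.3 and 89.1 normalized CPM in WT + TAM and at 145, 173, 186 and 133 in *Mtm1* KO + TAM, again without overlap. *Rpl3* rose in *Mtm1* KO with a log2 fold change of 0.84 (SE 0.14, adjusted p = 0.00703, edgeR's quasi-likelihood test, adjusted by Benjamini-Hochberg over 14740 genes). Between the treated groups it rose with a log2 fold change of 0.79 (SE 0.15, adjusted p = 0.00561, edgeR's quasi-likelihood test over 14563 genes).

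*Rpl3l* stood at 542, 597 and 586 normalized CPM in WT and at 337, 315 and 344 in *Mtm1* KO. With tamoxifen it stood at 554, 540.2, 531 and 544 normalized CPM in WT + TAM and at 402, 356, 314 and 393 in *Mtm1* KO + TAM. The knockout libraries were below the WT libraries in both pairs of groups, with no overlap. Its log2 fold change was -0.77 in *Mtm1* KO against WT (SE 0.12, adjusted p = 0.00606, edgeR's quasi-likelihood test) and -0.56 in *Mtm1* KO + TAM against WT + TAM (SE 0.11, adjusted p = 0.00642, edgeR's quasi-likelihood test). With each library left out in turn the log2 fold change of *Rpl3* stayed between 0.71 and 0.91 in *Mtm1* KO against WT and that of *Rpl3l* between -0.81 and -0.72, but all 6 fits then gave adjusted p above the threshold of 0.01, with the highest at 0.0330 and 0.0297 (edgeR's quasi-likelihood test). Between the treated groups the same ranges were 0.72 to 0.93 and -0.60 to -0.49, with the highest adjusted p at 0.0203 and 0.0224 (edgeR's quasi-likelihood test). Scaled by library size alone, *Rpl3l* had a log2 fold change of -0.46 (adjusted p = 0.0189, edgeR's quasi-likelihood test) in *Mtm1* KO and -0.29 (adjusted p = 0.0505) in *Mtm1* KO + TAM.

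The ratio of the 2 genes within a library does not depend on the scaling of libraries. In WT *Rpl3l* made up 92.5% ± 0.836 (SD, n = 3) of the RPKM of the pair, and in *Mtm1* KO 80.3% ± 1.86 (SD, n = 3). The share in WT + TAM was 91.8% ± 1.26 (SD, n = 4), and that in *Mtm1* KO + TAM was 81.2% ± 4.03 (SD, n = 4). *Rpl3l* thus remained the more abundant of the pair in all 16 libraries, with its lowest share, 76.2%, in KO + TAM replicate 15. The size of these shares rests on the gene lengths behind the RPKM. *Rpl3l* also had the higher count in all 16 libraries, but by less in KO + TAM replicate 15. Counts of *Rpl3* and *Rpl3l* were 2545 and 14672 in WT replicate 2 and 6631 and 11192 in KO + TAM replicate 15. The log2 ratio of *Rpl3* to *Rpl3l* was higher by 1.60 in *Mtm1* KO than in WT (p = 0.1 in the two-sided exact permutation test, the smallest that 3 against 3 libraries allow). It was higher by 1.37 in *Mtm1* KO + TAM than in WT + TAM (p = 0.0286 in the two-sided exact permutation test, the smallest that 4 against 4 allow). Neither passed adjustment over the 24 tests of paralog pairs (adjusted p = 0.392 and 0.343, exact permutation tests). With tamoxifen the log2 ratio differed by -0.10 in *Mtm1* KO (p = 0.686, exact permutation test) and by 0.14 in WT (p = 0.514, exact permutation test), and the groups overlapped.

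**Figure D1:**
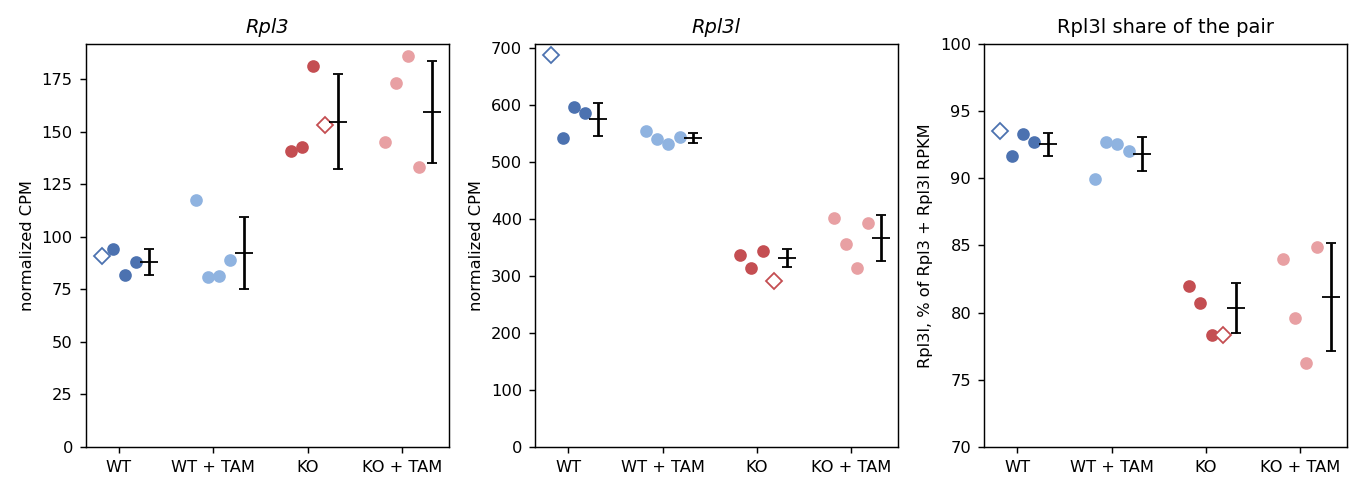
Normalized CPM of Rpl3 (left) and Rpl3l (middle), and the share of Rpl3l in the RPKM of the pair in percent (right, axis from 70), by group. Filled circles are the libraries of the main set, open diamonds those labelled WT replicate 1 and KO replicate 12, and bars the mean ± SD of the filled circles; the genotypes do not overlap in any panel.

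The library labelled WT replicate 1 stood at 91.0 normalized CPM of *Rpl3*, inside the range of the other WT libraries, and its *Rpl3l* share of 93.5% was that of a WT library although its *Mtm1* count was not. The library labelled KO replicate 12 stood at 153 normalized CPM of *Rpl3* and a share of 78.3%, beside the other knockouts. In all 16 libraries the log2 ratio differed by 1.70 between *Mtm1* KO and WT (two-sided exact permutation test, p = 0.0286).

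Most of the remaining members had somewhat higher values in *Mtm1* KO than in WT, but few passed a test one by one. Of the 82 genes 72 had a positive and 10 a negative log2 fold change, with a median of 0.29, against a median of 0.023 over all 14740 genes, of which 52.4% were positive. With the adjusted p held to 0.01 (edgeR's quasi-likelihood test), 1 member rose and 1 fell, the pair above, and the background over all genes was 1.91% called higher and 1.69% called lower. At 0.05 the members called were 9 higher and 1 lower, 11% and 1.22% of the 82, against 6.26% and 6.53% of all genes. These 9 were *Rpl3*, *Rps29*, *Rps28*, *Rplp2*, *Rpl37a*, *Rpl38*, *Rps10*, *Rpl37* and *Rps19*. At an unadjusted p under 0.05 stood 37 members and 4431 of all genes.

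*Rps29*, a zinc-binding protein of the small subunit, had the largest difference after *Rpl3*. It stood at 142, 140.5 and 156 normalized CPM in WT and at 211, 294 and 243 in *Mtm1* KO. The groups did not overlap (log2 fold change 0.80, SE 0.15, adjusted p = 0.0110, edgeR's quasi-likelihood test). *Rps28*, another small subunit protein, stood at 97.4, 93.6 and 109 normalized CPM in WT and at 132, 202 and 165 in *Mtm1* KO, without overlap (log2 fold change 0.76, SE 0.17, adjusted p = 0.0212, edgeR's quasi-likelihood test). *Rplp2*, the partner of *Rplp1* in the ribosomal stalk, stood at 197, 189 and 199 normalized CPM in WT and at 240.5, 388 and 307 in *Mtm1* KO. The 3 WT libraries lay close together and the 3 knockout libraries far apart (log2 fold change 0.70, SE 0.17, adjusted p = 0.0318, edgeR's quasi-likelihood test). *Rpl37a* and *Rpl38*, small proteins of the large subunit, had log2 fold changes of 0.70 (SE 0.18) and 0.69 (SE 0.16). The others called at 0.05 were *Rps10*, *Rpl37* and *Rps19*, with log2 fold changes of 0.61, 0.53 and 0.49. The pseudogene *Rpl38-ps2* held 18.8% of the count of *Rpl38*, so that its value is uncertain. The calls at 0.05 depended on the libraries used. With all 16 the log2 fold change of *Rps29* was 0.61 (adjusted p = 0.395) and that of *Rps28* also 0.61 (adjusted p = 0.424, edgeR's quasi-likelihood test). With 1 library left out, *Rps29* stayed between 0.67 and 0.91 (adjusted p up to 0.0414), and *Rps28* between 0.60 and 0.90 (adjusted p up to 0.0677), where leaving out KO replicate 9 gave the highest value of both. *Rplp2*, *Rpl37a*, *Rpl38* and *Rps19* had adjusted p up to 0.0899, 0.109, 0.0737 and 0.0943 with 1 library left out, and 0.547, 0.604, 0.594 and 0.557 with all 16 (edgeR's quasi-likelihood test).

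At the other end, *Rps7*, *Rpl15*, *Rpl5* and *Rpl4* had log2 fold changes of -0.18, -0.13, -0.12 and -0.093 against WT. *Rpl5* belongs to the particle with 5S ribosomal RNA, and *Rpl4* lines the exit tunnel of the ribosome. Their groups overlapped, and the lowest adjusted p among them was 0.407 (edgeR's quasi-likelihood test). Of the abundant members, *Rplp0*, the base of the stalk, had a log2 fold change of 0.051, *Rps15* of 0.33, *Rps12* of 0.35 and *Rplp1* of 0.38, none of which passed. Apart from the *Rpl3* pair the log2 fold changes ran from -0.18 to 0.80. The 33 small subunit genes had a median of 0.35 and the 49 large subunit genes a median of 0.23, as a description with no test.

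How many members passed depended on the scaling of libraries. TMM left all genes at a median log2 fold change of 0.023, and scaling by library size alone put it at 0.33. The 10 most abundant genes took 23.6 to 27.6% of counts in WT and 16.9 to 18.8% in *Mtm1* KO. Relative to the median of all genes, members stood 0.27 higher under both. With library size alone 22 members were called higher and 0 lower at 0.01 (26.8% of the 82, against 6.94% of all genes called higher and 0.950% called lower), in place of 1 and 1. The direction of *Rps7*, *Rpl15*, *Rpl5* and *Rpl4* turned to higher under this scaling, and that of *Rpl3l* did not. As a share of all counts the 82 genes took 1.70, 1.68 and 1.75% in WT and 2.18, 2.75 and 2.61% in *Mtm1* KO. After TMM scaling their summed normalized CPM was 18738 ± 919 (SD, n = 3) in WT. In *Mtm1* KO it was 21811 ± 2778 (SD, n = 3), and KO replicate 9, at 18603, lay inside the WT range.

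**Figure D2:**
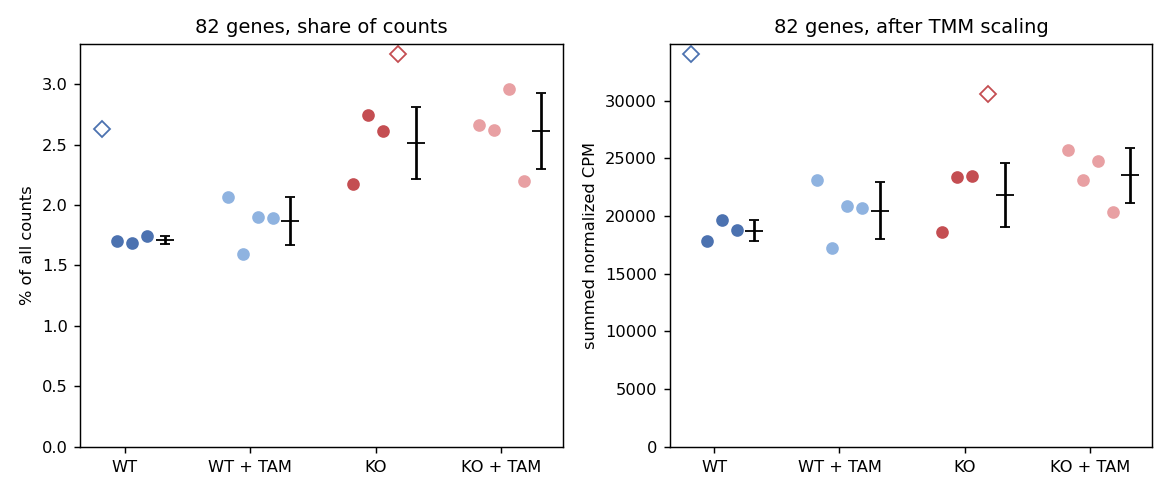
Share of all counts on the 82 genes in percent (left) and their summed normalized CPM after TMM scaling (right), by group. Filled circles are the libraries of the main set, open diamonds those labelled WT replicate 1 and KO replicate 12, and bars the mean ± SD of the filled circles; the gap between genotypes on the left is narrower on the right, where KO replicate 9 falls among the WT libraries.

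With tamoxifen most members had higher values in the knockout as well, and *Rpl3* and *Rps28* were called higher at 0.05 in both settings. The share of all genes called in both is not given here. In *Mtm1* KO + TAM against WT + TAM, which share no library with *Mtm1* KO against WT, 77 of the 82 genes had a positive log2 fold change and 5 a negative one, with a median of 0.24 against -0.014 over all 14563 genes. At 0.01 *Rpl3* rose and *Rpl3l* fell (background 3.42% called higher and 3.30% called lower). At 0.05 the members called were 9 higher and 1 lower (11% and 1.22% of the 82, against 8.19% and 8.81% of all genes), and the 9 were *Rpl3*, *Rpl39*, *Rps28*, *Rpl21*, *Rpl36a*, *Rps27l*, *Rps27*, *Rps25* and *Rpl23*. With library size alone 27 members were called higher and 0 lower at 0.01 (32.9% of the 82, against 11.4% of all genes called higher and 1.49% called lower). The share of counts on the 82 genes was 2.07, 1.59, 1.90 and 1.89% in WT + TAM and 2.66, 2.62, 2.96 and 2.20% in *Mtm1* KO + TAM.

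*Rps28* stood at 119, 79.1, 114 and 112 normalized CPM in WT + TAM and at 207, 144, 173 and 132 in *Mtm1* KO + TAM. The groups did not overlap (log2 fold change 0.63, SE 0.17, adjusted p = 0.0265, edgeR's quasi-likelihood test). *Rps27*, a zinc finger protein of the small subunit, stood at 215, 156, 184 and 196 normalized CPM in WT + TAM and at 274, 238, 286 and 221 in *Mtm1* KO + TAM, again apart (log2 fold change 0.44, SE 0.13, adjusted p = 0.0393, edgeR's quasi-likelihood test). *Rpl38* stood at 83.9, 51.7, 69.7 and 70.9 normalized CPM in WT + TAM and at 123, 96.3, 106 and 74.3 in *Mtm1* KO + TAM. Here KO + TAM replicate 16 fell below WT + TAM replicate 5 (log2 fold change 0.54, SE 0.18, adjusted p = 0.0576, edgeR's quasi-likelihood test). The lowest log2 fold changes after *Rpl3l* were those of *Rpl15* (-0.095), *Rps2* (-0.031), *Rpl4* (-0.024) and *Rpl10* (-0.013), all of which turned to higher with library size alone. With 1 library left out, the adjusted p of *Rps28* reached 0.0702 and that of *Rps27* 0.105 (edgeR's quasi-likelihood test), both without KO + TAM replicate 15.

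Across the 2 genotype comparisons 71 of the 82 genes were higher in both and 4 lower in both, while of all 14278 genes tested in both 39.2% were higher and 38.2% lower in both. The log2 fold changes correlated across the members with a Pearson r of 0.87, and across all genes with 0.75. Both are descriptions across genes, which are not independent replicates, and *Rpl3* and *Rpl3l* lie at the ends of the members' range. The groups did not overlap, with higher values in the knockout, for 24 members in *Mtm1* KO against WT (29.3%, with a background of 17.4% higher and 19.0% lower over all genes). Between the treated groups this held for 11 members (13.4%, with a background of 10.9% higher and 11.6% lower). It held in both for 9 members (11%, with a background of 7.27% higher and 8.17% lower), namely *Rpl3*, *Rpl21*, *Rpl23*, *Rpl39*, *Rps15a*, *Rps25*, *Rps27*, *Rps28* and *Rps29*. They made up 9 of the 24 and 9 of the 11. The 1 member below WT without overlap in both was *Rpl3l*. All of these counts are for the 14 libraries of the main set. Once WT replicate 1 is added to the WT group, only *Rpl3* of the 9 stays apart in *Mtm1* KO against WT. For example, WT replicate 1 stood at 413 normalized CPM for *Rpl21* and 382 for *Rps27*, and KO replicate 9 at 266 and 188. *Rpl3l* stays apart as well. The background with that library added is not given here.

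**Figure D3:**
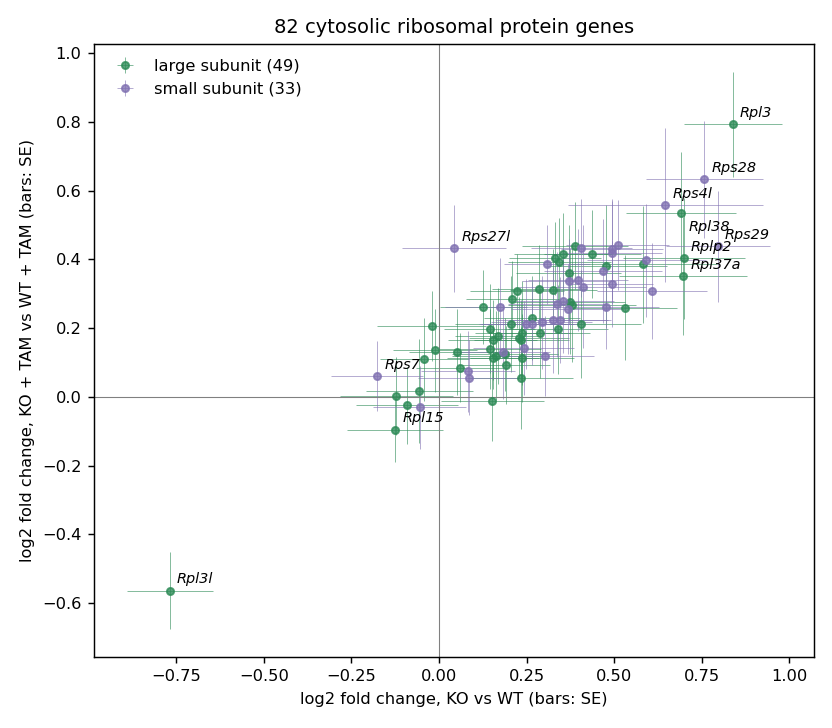
Log2 fold change of each of the 82 genes in KO against WT (horizontal) and in KO + TAM against WT + TAM (vertical), with bars of 1 SE. Rpl3 at 0.84 and 0.79 and Rpl3l at -0.77 and -0.56 lie at opposite ends, and the medians of all 82 are 0.29 and 0.24.

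The other 5 paralog pairs gave smaller differences. *Rpl36a* to *Rpl36al*, 2 genes of the same large subunit protein of which *Rpl36al* falls outside the symbol rule, was the only other pair without overlap in both genotype comparisons. The share of *Rpl36al* in the RPKM of the pair in WT was 61.8% ± 4.01 (SD, n = 3), and in *Mtm1* KO it was 55.0% ± 1.55 (SD, n = 3). In WT + TAM it was 65.1% ± 3.33 (SD, n = 4) and in the treated knockout 57.2% ± 2.16 (SD, n = 4). The log2 ratio was higher in the knockout by 0.40 (p = 0.1, two-sided exact permutation test) and by 0.48 (p = 0.0286, two-sided exact permutation test), without overlap, and neither passed adjustment over the 24 tests (adjusted p = 0.392 and 0.343, exact permutation tests). *Rpl36al* itself had log2 fold changes of -0.014 and -0.049, and *Rpl36a* of 0.39 (adjusted p = 0.121) and 0.44 (adjusted p = 0.0353, edgeR's quasi-likelihood test). The 2 coding sequences were identical at 87.7% of 318 bases.

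*Rps27l* encodes a close relative of *Rps27* and is known as a target of p53. Its coding sequence was identical to that of *Rps27* at 75.0% of 252 aligned bases, with no identical run over 11 bases. Bases 40 to 99 of each are printed because the 10 capitals, the bases that differ, show how the 2 can be told apart.
Rps27: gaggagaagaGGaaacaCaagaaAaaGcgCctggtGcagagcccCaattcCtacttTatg
Rps27l: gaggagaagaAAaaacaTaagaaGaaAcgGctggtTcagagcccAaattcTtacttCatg
*Rps27l* stood at 76.5, 89.4 and 83.9 normalized CPM in WT and at 83.6, 70.3 and 99.3 in *Mtm1* KO, with overlap (log2 fold change 0.043, SE 0.15). With tamoxifen it stood at 76.4, 73.6, 76.9 and 83.1 normalized CPM in WT + TAM and at 99.3, 128, 105 and 85.4 in *Mtm1* KO + TAM, without overlap (log2 fold change 0.43, SE 0.13, adjusted p = 0.0387, edgeR's quasi-likelihood test). Without KO + TAM replicate 14 this was 0.32 (adjusted p = 0.102, edgeR's quasi-likelihood test). The difference between these 2 fold changes was 0.41 (SE 0.20, unadjusted p = 0.0543, adjusted p = 1.00, edgeR's quasi-likelihood test of the interaction), so that it did not pass. The log2 ratio of *Rps27* to *Rps27l* was higher by 0.47 in *Mtm1* KO (p = 0.1, exact permutation test) and by 0.025 in *Mtm1* KO + TAM (p = 0.914, exact permutation test). In WT + TAM against WT it was higher by 0.32, without overlap (p = 0.0571, adjusted p = 0.392, exact permutation test). With all 16 libraries the groups overlapped in both untreated KO against WT (0.46, p = 0.229, exact permutation test) and WT + TAM against WT (0.058, p = 0.886, exact permutation test).

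For the remaining pairs the groups overlapped in every comparison. The second gene of the pair made up 76.2% ± 3.02 (SD, n = 3) of the RPKM of *Rpl22* and *Rpl22l1* in WT, against 73.1% ± 1.62 (SD, n = 3) in the knockout. This share rests on the lengths behind the RPKM, 2911 and 489 bases as implied by counts and RPKM, since *Rpl22* had the higher count in all 16 libraries. It made up 13.6% ± 0.915 and 14.4% ± 0.363 (SD, n = 3) for *Rpl7* and *Rpl7l1*. It made up 2.47% ± 0.596 and 2.84% ± 1.08 (SD, n = 3) for *Rps4x* and *Rps4l*, and *Rps4l* had between 3.8 and 10.6 normalized CPM in any library. Of the 24 tests none passed adjustment. The pairs *Rpl10* with *Rpl10l* and *Rpl39* with *Rpl39l* were not tested, because the second gene was under 50 counts in at least 1 library, and *Rpl10l* had 0 counts throughout.

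**Figure D4:**
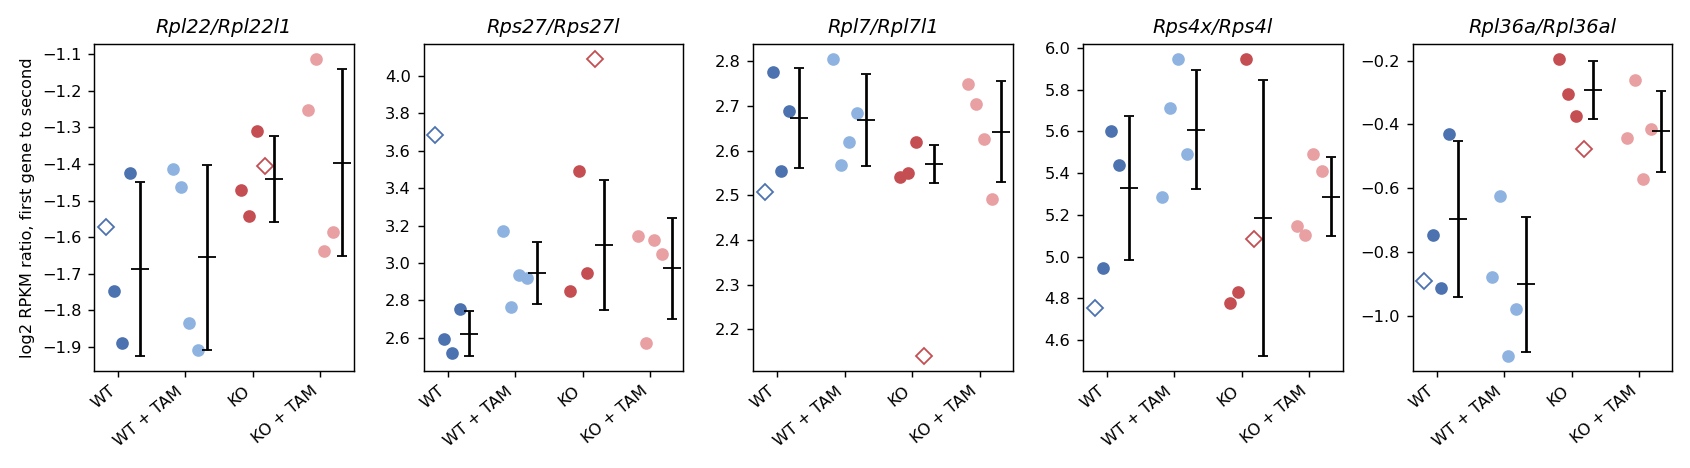
Log2 ratio of RPKM of the first to the second gene for the 5 other paralog pairs, by group. Filled circles are the libraries of the main set, open diamonds those labelled WT replicate 1 and KO replicate 12, and bars the mean ± SD of the filled circles; each panel has its own axis, and the filled circles of the genotypes separate with and without tamoxifen for Rpl36a/Rpl36al, where KO replicate 12 lies below WT replicate 4.

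No member passed the test for tamoxifen. Within the knockout, 0 of the 82 genes were called by edgeR's quasi-likelihood test at 0.01 or 0.05 (background 0% of 15062 genes), 0 were at an unadjusted p under 0.05, and DESeq2 called 0 at 0.01. The median log2 fold change was 0.096, the range was -0.14 to 0.29, and the lowest adjusted p was 0.690 (edgeR's quasi-likelihood test), for *Rpl32*. In WT + TAM against WT, 0 members were called at 0.01 or 0.05 (background 0.131% and 0.550% of 14544 genes), 1 was at an unadjusted p under 0.05 and DESeq2 called 0 at 0.01. The median was 0.12. The 1 gene was *Rpl10*, whose protein joins the large subunit late in its maturation, with a log2 fold change of 0.32 (SE 0.12, adjusted p = 0.359, edgeR's quasi-likelihood test). It stood at 225, 272 and 223 normalized CPM in WT and at 312, 267, 326 and 297 in WT + TAM, and the groups overlapped. The interaction called 0 members at 0.01 or 0.05 (background 0% of 15556 genes), with 0 at an unadjusted p under 0.05 and 0 by DESeq2 at 0.01.

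These tamoxifen medians rest on single libraries. When WT replicate 1 and KO replicate 12, as labelled, were included, the median of the members was -0.13 for WT + TAM against WT, with 11 of 82 positive, and -0.016 for *Mtm1* KO + TAM against *Mtm1* KO, with 38 positive. Without KO replicate 9 the latter was -0.00285. Without WT + TAM replicate 6 the former was 0.21, and without WT + TAM replicate 5 it was 0.048.

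Most members varied together from library to library. Exceptions were *Rpl3l*, *Rpl15* and *Rpl5*, whose log2 levels correlated with the mean of the other members at a Pearson r of -0.64, -0.13 and -0.11, as a description over the 14 libraries, which share normalization and groups. Taken as the median over the 82 genes of the log2 ratio to the WT mean, WT replicates 2 to 4 stood at -0.061, 0.052 and 0.00258, and KO replicates 9 to 11 at 0.0086, 0.36 and 0.37. WT + TAM replicates 5 to 8 stood at 0.32, -0.13, 0.16 and 0.15, and KO + TAM replicates 13 to 16 at 0.50, 0.36, 0.45 and 0.16. KO replicate 9 and WT + TAM replicate 6 were the low libraries of their groups. The library labelled WT replicate 1 stood highest of all 16 at 0.81, with 80 of 82 genes above the WT mean, and the library labelled KO replicate 12 at 0.69. In both, *Rpl3* lay within the range of the other libraries of its group. With both added, *Mtm1* KO against WT kept 62 of 82 positive log2 fold changes, the median fell from 0.29 to 0.17, and 0 members were called at 0.01 (edgeR's quasi-likelihood test). Without KO replicate 9 the median was 0.39 and 3 members were called.

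**Figure D5:**
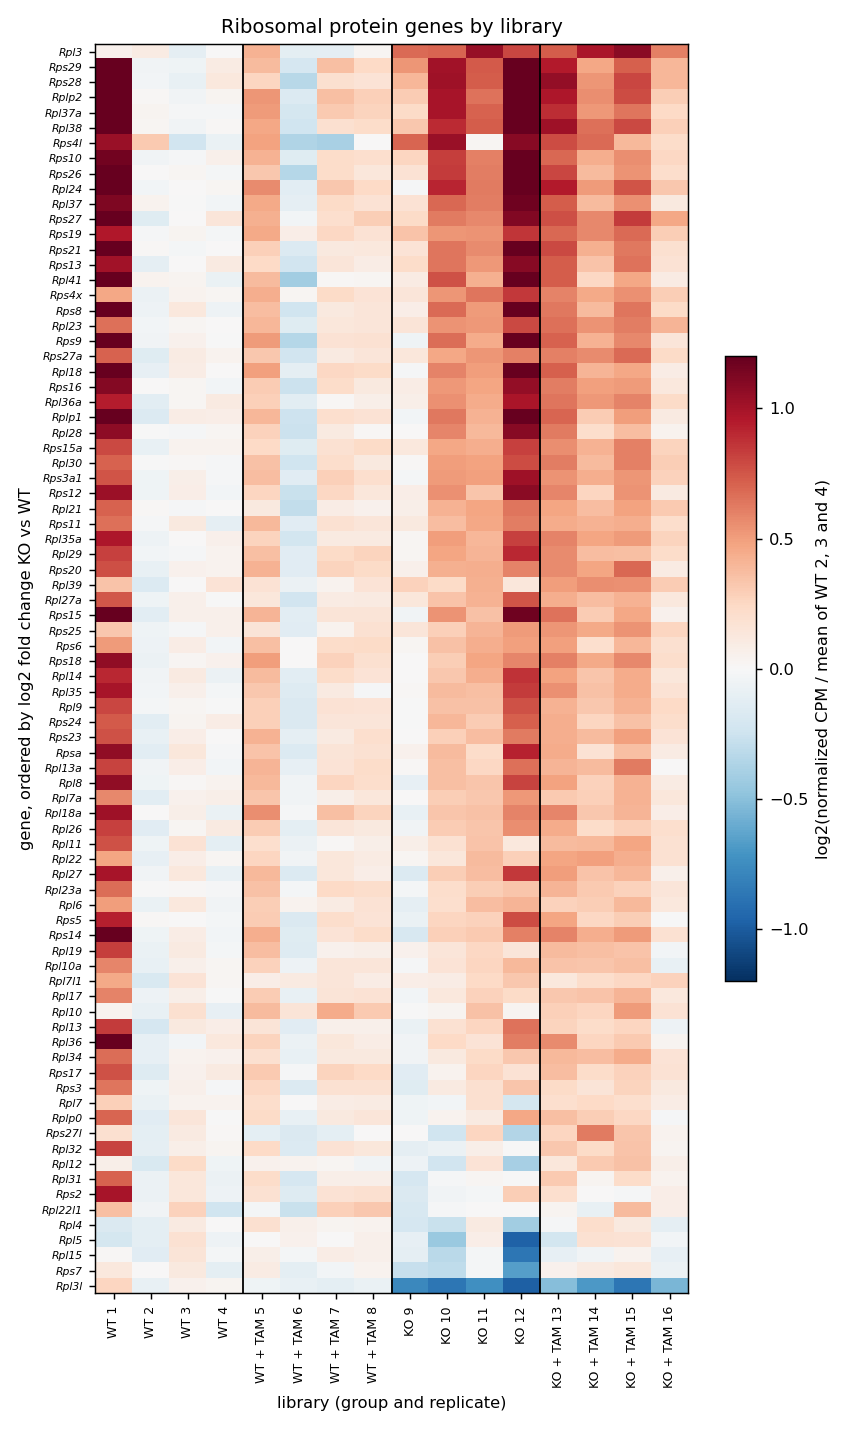
Log2 ratio of normalized CPM to the mean of WT replicates 2, 3 and 4 for the 82 genes (rows, ordered by the change in KO against WT) in the 16 libraries (columns, with vertical lines between the groups WT, WT + TAM, KO and KO + TAM). The libraries labelled WT 1 and KO 12 are darkest in most rows, Rpl3 in the top row is higher in every KO and KO + TAM library than in any other, and Rpl3l in the bottom row is lower in every KO and KO + TAM library.

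Gene length moved with some of these values. Genes up to 1000 bases long (length taken from counts and RPKM) were summed without the members, among genes past the low-count filter. They held 10.4% of counts in the library labelled WT replicate 1 and 8.41% in that labelled KO replicate 12. In the 14 others they held 5.78 to 7.74%. In *Mtm1* KO against WT the median log2 fold change was 0.18 over 1039 other genes of up to 1000 bases. It was 0.34 over the 28 members of that length and 0.24 over the 54 longer members. Between the treated groups these medians were 0.12, 0.26 and 0.22. Across the 82 members the Spearman correlation of log2 fold change with length was -0.12 and -0.11, as a description. The part of length in the members' values was not tested.

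Sequence shared with other genes was common. Of the exon sequence of a member, a median of 23.6% of 50-base stretches occurred in another gene, and 67 of the 82 had over 10%. The share was 11.3% for *Rps28*, 18.3% for *Rplp2*, 18.9% for *Rps29*, 25% for *Rps27* and 27.4% for *Rpl38*. The 245 pseudogenes named after a member held 0.415% as many counts as the members. How the authors' counting treated reads that fit several genes is not given in the sources used here.

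The genes around the ribosome were read from lists. Among 46 ribosome biogenesis genes, 36 were higher in *Mtm1* KO (median log2 fold change 0.16) and 0 were called at 0.01, with 10 at an unadjusted p under 0.05. Between the treated groups the median was 0.075 and 1 was called, *Myc*, the transcription factor that drives ribosome production, which rose with a log2 fold change of 1.26 (SE 0.20, adjusted p = 0.00232, edgeR's quasi-likelihood test). Without tamoxifen *Myc* had a log2 fold change of 0.80 (adjusted p = 0.0235, edgeR's quasi-likelihood test). DESeq2 at 0.01 called *Myc* in both comparisons and 3 more of the list with tamoxifen. The 77 mitochondrial ribosomal protein genes had medians of -0.019 and 0.023. There 0 were called without tamoxifen, with 8 at an unadjusted p under 0.05 and 1 called by DESeq2 at 0.01, and 1 was called higher with tamoxifen, *Mrpl33* (log2 fold change 0.70, SE 0.15, adjusted p = 0.00883, edgeR's quasi-likelihood test).

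Of 19 other factors whose mRNAs carry a TOP tract, 12 were higher in each comparison (medians 0.12 and 0.11), and 0 were called at 0.01, with 6 at an unadjusted p under 0.05 in each and 1 called by DESeq2 at 0.01. That was *Eef1a1*, the ubiquitous elongation factor, with log2 fold changes of 0.83 (adjusted p = 0.0177) and 0.75 (adjusted p = 0.0117, edgeR's quasi-likelihood test). *Eef1a1* stood at 690.1, 595 and 622 normalized CPM in WT and at 1079, 896 and 1356 in *Mtm1* KO. Its muscle paralog *Eef1a2* stood at 1560.0, 1730 and 1452 normalized CPM in WT and at 1151, 1138 and 1203 in *Mtm1* KO (log2 fold change -0.42, SE 0.14, adjusted p = 0.0774, edgeR's quasi-likelihood test). DESeq2 called *Eef1a2* lower at 0.01 in both genotype comparisons. Among these libraries the genotypes did not overlap for either gene. The library labelled KO replicate 12 stood at 612 normalized CPM for *Eef1a1*, inside the WT range above, and at 1379 for *Eef1a2*, below that range. The library labelled WT replicate 1 stood at 476 and 2191. Of 18 regulators of mTORC1, TOP mRNAs and S6 kinases, 4 and 1 were higher (medians -0.21 and -0.27), against 52.4% and 48.7% of all genes. At 0.01, 1 and 2 were called lower and 0 higher, with 7 and 6 at an unadjusted p under 0.05, and DESeq2 called 3 and 5 lower at 0.01. *Rps6ka2*, a kinase of ribosomal protein S6, fell by 0.94 on the log2 scale in *Mtm1* KO (SE 0.14, adjusted p = 0.00493, edgeR's quasi-likelihood test) and by 0.90 in *Mtm1* KO + TAM (adjusted p = 0.00162). *Sesn1*, an inhibitor of mTORC1, fell by 0.71 in *Mtm1* KO + TAM (SE 0.11, adjusted p = 0.00153, edgeR's quasi-likelihood test). A list of 8 ribosomal protein genes was drawn up for those outside the symbol rule. It also held the member *Rps4l*, and *Rpl10l* and *Rpl39l*, which match the symbols but miss the minimum count. Of these 8, 7 were tested, *Rps4l* among them. In each comparison 5 were higher, with 0 called by either tool and 2 and 1 at an unadjusted p under 0.05. They include *Fau*, which carries the small subunit protein S30, with log2 fold changes of 0.40 and 0.31.

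By a fixed rule the 5 genes with log2 normalized CPM most like *Rpl3* over the 14 libraries were *Lgals3* (Pearson r of 0.98), *Eef1a1*, *Anxa7*, *Cd151* and *Tmem176a* (0.96). Those most like *Rpl3l* were *Podxl2* (0.98), *Phkg1*, *Gm12319*, *Tpi1* and *Tpm1* (0.98). The 14 libraries fall into 2 genotypes that differ in both genes, so that any gene that differs between them scores high.

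Markers of cell types differed between the genotypes as well. All 9 immune genes found of 10 listed were higher in *Mtm1* KO (median log2 fold change 0.85) and in *Mtm1* KO + TAM (median 0.94), with 6 and 4 of them called at 0.05, 0 at 0.01 and 5 and 3 by DESeq2 at 0.01 (9 and 8 had an unadjusted p under 0.05). Their summed level was 126 to 143 normalized CPM in WT, 174 to 255 in *Mtm1* KO, 59.5 to 160.3 in WT + TAM and 172 to 284 in *Mtm1* KO + TAM, and none was at 0. The 12 muscle fiber genes summed to 203457 to 268817 normalized CPM in WT and 124986 to 146771 in *Mtm1* KO, and to 216708 to 228558 in WT + TAM and 110952 to 160450 in *Mtm1* KO + TAM. Of them 3 were higher and 9 lower in each comparison. *Des*, the intermediate filament protein desmin, rose in both comparisons (log2 fold changes of 0.98 and 0.90). At 0.05, 7 of the 12 were called lower in each comparison, and 1 and 2 were called higher. *Pvalb*, *Atp2a1*, *Myh4* and *Ckm* passed 0.01 between the treated groups, where 4 of the 12 were called lower and 1 higher. DESeq2 called 8 and 7 of the 12 lower and 1 and 3 higher at 0.01. Between *Mtm1* KO + TAM and *Mtm1* KO 0 of the 12 were called at 0.01 or 0.05 (median 0.091), and 0 had an unadjusted p under 0.05. The sum of 6 genes of satellite and proliferating cells was 71.5 to 79.6 normalized CPM in WT and 134 to 179 in *Mtm1* KO, with *Myog*, a factor of muscle differentiation, higher by 1.95 on the log2 scale (adjusted p = 4.00e-04, edgeR's quasi-likelihood test). Of these 6 genes 2 were higher and 4 lower in *Mtm1* KO (median -0.13), and 4 higher and 2 lower in *Mtm1* KO + TAM (median 0.29). *Pax7*, the marker of satellite cells, had log2 fold changes of -1.39 (adjusted p = 0.0161) and, between the treated groups, -1.26 (adjusted p = 0.0175, edgeR's quasi-likelihood test). Of 8 fibroblast genes 5 and 7 were higher, with 5 and 4 at an unadjusted p under 0.05. At 0.01, 1 was called higher in each comparison by edgeR's quasi-likelihood test, *Postn*. DESeq2 at 0.01 called *Postn* in both and *Lum* as well between the treated groups. Of 6 endothelial, 5 red blood cell and 5 fat cell genes 0 were called at 0.01 by edgeR's quasi-likelihood test or DESeq2. In *Mtm1* KO 1 of the endothelial genes had an unadjusted p under 0.05. The part of these cells in the values of the ribosomal protein genes was not tested.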

How the data were processed

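RNA from quadriceps of 16 mice was read from 2 deposited tables of 41388 genes. Per the authors, reads were aligned to GRCm38 with STAR and counted on genes with HTSeq, and the count values are whole and unscaled. The submitters' processing notes name bcl2fastq 2.17, STAR 2.5.0c and Cufflinks 2.2.1. Per the authors, RPKM was made from the counts by dividing by gene length and library size. Over 8679 genes it followed total counts with a largest relative deviation of 0.00263. The sources used here name no annotation, no HTSeq mode, no strand setting and no length definition. Of 120 pairs of libraries, 0 were identical. Depth was 25116179 to 29847222 counts per library.

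Groups came from the labels. The members, gene lists and tests were chosen with earlier results of these data known. The genotypes were compared without and with tamoxifen, treated with untreated mice within each genotype, and the 2 effects through an interaction in 1 fit of the 4 groups. Counts were fitted in edgeR 4.0.16 (R 4.3.3) with TMM, filterByExpr (minimum count 10, minimum total 15) and the quasi-likelihood test. The p-values were adjusted by Benjamini-Hochberg over all genes tested, and calls were made up to 0.01. The SE is the fold change divided by the root of the test's F value. The fits were tested on simulated data. Paralog ratios used log2 RPKM and two-sided exact permutation tests (scipy 1.17.1), adjusted over 24 tests.

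Genes named were both genes of each paralog pair tested, members called at 0.01 (up to 15 in each comparison), the 5 highest and 5 lowest by fold change in each genotype comparison and by RPKM, the 5 genes most like *Rpl3* and *Rpl3l*, and called genes of the lists. Members called at 0.05, those without overlap in both comparisons, *Eef1a2* and *Rpl32* were named after their values were seen. Alternatives were DESeq2 1.42.0, RLE, library size, a minimum of 10 counts per library, no filter, a threshold of 0.05, limma 3.58.1 on log2(RPKM + 1) and log2(RPKM + 0.1), all 16 libraries, 1 fit of 4 groups, raw count ratios and each library left out. Positions are from GENCODE vM21 (GRCm38), which held all 82 genes.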

Additional observations from a re-analysis of the deposited data

Results flagged for a closer look

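In 148 groups of 4 libraries (the 29 named genes, 6 paralog ratios, the members' share of counts and *Mtm1*), 1 library stood far from the other 3 in 22. Chance alone gives about 5% of independent groups. Most members vary together from library to library, so these groups are not independent and the 22 cannot be weighed against that share. The library labelled WT replicate 1 was the one in 15 of the 22. It held 74 counts of *Mtm1* (341 to 369 in the others), and 2.63% of its counts were on the 82 genes (1.68 to 1.75%). In normalized CPM it stood at 382 for *Rps27* (145 to 177 in the others), 154 for *Rpl36a* (73.4 to 86.4), 481 for *Rpl37a* (160.0 to 166), 567 for *Rplp2* (189 to 199), 261 for *Rps28* (93.6 to 109) and 375 for *Rps29* (140.5 to 156). It also stood at 1469 for *Rps2* (702 to 814), 178 for *Rpl38* (59.3 to 62.1), 1476 for *Rplp1* (480 to 570), 495 for *Rps12* (235 to 257), 812 for *Rps15* (266 to 303), 252 for *Rps19* (128 to 133) and 300.2 for *Rps15a* (163 to 179). All 13 genes stood higher there, and *Rpl3* was not among them.

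In other libraries the flags were scattered. KO + TAM replicate 13 held 53 counts of *Mtm1* (92 to 97 in the others). WT + TAM replicate 6 was low at 663 normalized CPM for *Rps2* (836 to 846) and at 156 for *Rps15a* (196.5 to 204). KO replicate 9 was low at 59.9 normalized CPM for *Rpl22l1* (67.8 to 68.7), and KO replicate 11 was high at 304 for *Rpl10* (239 to 245). The library labelled KO replicate 12 was low at 2.14 for the log2 ratio of *Rpl7* to *Rpl7l1* (2.54 to 2.62), and KO + TAM replicate 14 at 2.57 for *Rps27* to *Rps27l* (3.05 to 3.14).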

How the results depend on the processing

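No paired analysis was possible because the groups share no replicate numbers and the labels tie no libraries to a litter. In *Mtm1* KO against WT, 2 members were called at 0.01. DESeq2 called 9, library size alone 22, no filter 5, limma 6 on log2(RPKM + 1) and 7 on log2(RPKM + 0.1), the threshold of 0.05 gave 10, all 16 libraries 0, and leaving out 1 library 0 to 3. In *Mtm1* KO + TAM against WT + TAM, where 2 were called, DESeq2 called 5, library size alone 27, limma 22 and 24, the threshold of 0.05 gave 10, and leaving out 1 library 0 to 2. Library size alone called 6.94% of all genes higher in *Mtm1* KO and 11.4% in *Mtm1* KO + TAM. For DESeq2, no filter and limma the share of all genes called is not given here. Those counts therefore describe the settings and cannot be set against a background. The tamoxifen comparisons and the interaction gave 0 members in every setting run. The log2 ratio of *Rpl3* to *Rpl3l* in *Mtm1* KO against WT was 1.70 with 16 libraries (p = 0.0286, exact permutation test) and 1.51 to 1.69 with 1 library left out. In *Mtm1* KO + TAM against WT + TAM it was 1.22 to 1.49 (p = 0.0571, exact permutation test, the smallest that 4 against 3 allow), and in *Mtm1* KO + TAM against *Mtm1* KO -0.25 to 0.021, turning positive at 0.021 without KO + TAM replicate 16. The causes were not tested.

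Some named genes with small fold changes, none of them called, changed sign. In *Mtm1* KO against WT, library size alone, limma on log2(RPKM + 1) and limma on log2(RPKM + 0.1) gave, in this order, *Rpl22l1* 0.26, 0.27 and 0.27, *Rpl36al* 0.30, 0.28 and 0.29, *Rps7* 0.14, 0.13 and 0.13, *Rpl15* 0.19, 0.18 and 0.19, *Rpl5* 0.19, 0.18 and 0.18, *Rpl4* 0.22, 0.21 and 0.21 and *Rps2* 0.26, 0.26 and 0.26. All 16 libraries gave *Rps27l* -0.093, *Rpl7* -0.076 and *Rplp0* -0.037, and at least 10 counts in every library gave *Rpl36al* 0.000684. With 1 library left out, *Rpl22l1* ranged from -0.17 to 0.094, *Rps27l* from -0.091 to 0.17, *Rpl7* from -0.022 to 0.11, *Rpl36al* from -0.10 to 0.16, *Rpl5* from -0.24 to 0.022, *Rps2* from -0.097 to 0.017 and *Rplp0* from -0.019 to 0.12. In *Mtm1* KO + TAM against WT + TAM the same 3 settings gave *Rpl36al* 0.24, 0.23 and 0.24, *Rpl15* 0.19, 0.18 and 0.18, *Rpl4* 0.26, 0.25 and 0.25, *Rps2* 0.25, 0.25 and 0.25 and *Rpl10* 0.27, 0.26 and 0.26. With 1 library left out, *Rpl22l1* ranged from -0.092 to 0.097, *Rpl36al* from -0.18 to 0.037, *Rpl5* from -0.048 to 0.095, *Rpl4* from -0.079 to 0.028, *Rps2* from -0.11 to 0.00498 and *Rpl10* from -0.079 to 0.031.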
